A study of Arabidopsis thaliana with 16 samples.

Results

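H3K27me3 peaks of *Atsdr4l-4* seedlings were compared with those of wild-type Col-0 at 1 day after imbibition (DAI). The comparison used 4 of the 12 H3K27me3 peak lists in the series, 2 for each genotype, taken by genotype and time from their labels. A base counted as covered where a deposited peak lay over it. A gene was called where at least 500 bases of its body were covered in both libraries of one genotype and in neither library of the other. Chromosomes 1 to 5 were used, without the part of chromosome 2 from 3240001 to 3510000 that holds a mitochondrial insertion. The *Atsdr4l-4* line, which is Col-0 except for a short stretch missing from *AtSDR4L*, descends from a mutant described before, in which both copies of the gene were altered. Both genotypes were grown on LS medium with 1% sucrose, and the samples are labelled as 1-day-old seedlings. The series also holds the second deletion allele *Atsdr4l-5* and all 3 genotypes at 3 DAI. The deletion could not be checked, because *AtSDR4L* (AT1G27461) carried no peak in any of the 4 libraries.

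H3K27me3, trimethylation of lysine 27 on histone H3, is laid down by Polycomb repressive complex 2 and marks genes that are kept silent. When a seed becomes a seedling, embryo and maturation genes acquire this mark as they are shut off. The B3-domain proteins VAL1 and VAL2 bind RY elements in such genes and bring in Polycomb complexes, and AtSDR4L and its relatives DIG1 and DIG2 are co-repressors in the same transition.

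The 4 libraries resembled each other, and one stood slightly apart. They held between 6457 and 6797 peaks, with a median width of 2331 to 2371.5 bp and a median fold enrichment over the mock IgG background of 1.79 to 1.99. The median -log10 q was 6.42 and 6.74 in Col-0 against 7.13 and 8.55 in *Atsdr4l-4*. *Atsdr4l-4* replicate 1 had the most peaks (6797) and the longest covered length, no peak on the organellar genomes and 3 in the insertion. The other 3 libraries had 20 to 27 organellar peaks and 7 to 17 in the insertion. Peaks lay on 13 of 15 known Polycomb targets, among them *AG*, *STM* and *WUS*, and on none of 10 genes used in all cells, in each of the 4 libraries. The lists hold no read counts, so sequencing depth is unknown.

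The total length of the peaks did not differ between the genotypes beyond the spread of replicates. Peaks covered 23.7 and 23.9 Mb in Col-0 and 25.3 and 23.7 Mb in *Atsdr4l-4*. The *Atsdr4l-4* values lay on both sides of the Col-0 mean. The means were 23.8 Mb ± 0.154 and 24.5 Mb ± 1.14 (SD, n = 2), a log2 ratio of 0.041 (exact permutation test, two-sided, p = 0.667). For the number of peaks the log2 ratio was 0.034 (exact permutation test, two-sided, p = 0.667). With 6 assignments of 4 libraries, 0.333 is the smallest p this test can give, so no single value can pass 0.05. Without *Atsdr4l-4* replicate 1 the ratio of covered length was -0.0066.

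Most of the marked genome was shared. Of the 28223 kb covered in any of the 4 libraries, 72.5% was covered in all of them. Bases covered in both Col-0 and neither *Atsdr4l-4* libraries added up to 413 kb, and those covered in both *Atsdr4l-4* and neither Col-0 libraries to 748 kb. Replicates of one genotype differed by more: 1822 and 2040 kb lay in only one of the Col-0 libraries, and 2728 and 1120 kb in only one of the *Atsdr4l-4* libraries. These are differences between single libraries, a looser criterion than agreement in both. The Jaccard index of covered bases was 0.850 between the Col-0 replicates and 0.855 between the *Atsdr4l-4* replicates, against 0.818 to 0.841 between genotypes. The bars of exclusive peak length show both genotype differences below every replicate difference.

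**Figure D1:**
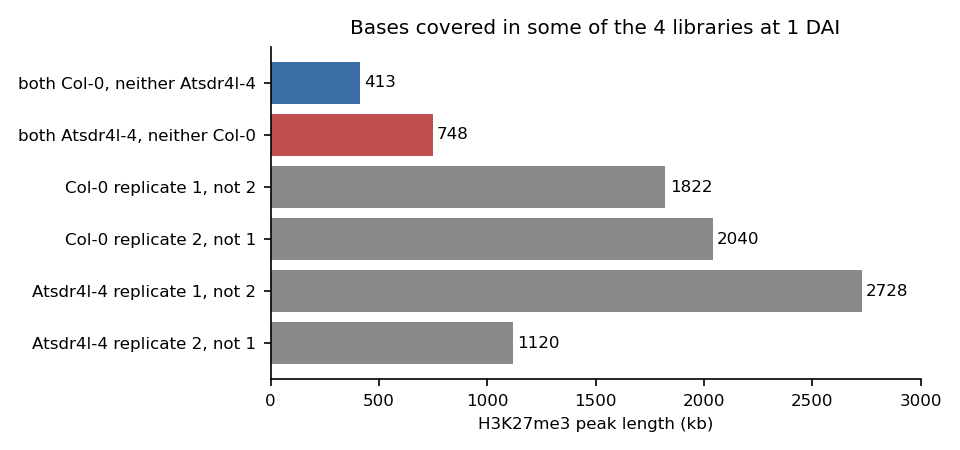
Peak length in kb (x axis) covered in both libraries of one genotype and neither of the other (coloured bars, 413 and 748 kb), beside the length on which the 2 replicates of a genotype differ (grey bars, 1120 to 2728 kb). Each bar is a single total with no error bar.

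The exclusive bases lay mainly at the edges of shared domains. They formed 2249 segments only in Col-0 and 2936 only in *Atsdr4l-4*, with medians of 65 and 107 bp. Segments that adjoined no peak of the other genotype made up 12.4% of the length only in Col-0 and 18.3% of that only in *Atsdr4l-4*. Of the 6221 stretches of at least 200 bp that both Col-0 libraries covered, 91 (1.46%) had no covered base in *Atsdr4l-4*. Of 6348 such stretches in *Atsdr4l-4*, 209 (3.29%) had none in Col-0.

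At the level of genes, 82 of 8899 tested genes (0.921%) were called only in Col-0 and 261 (2.93%) only in *Atsdr4l-4*. A gene called only in one genotype can have other bases covered in the other genotype. A tested gene is at least 500 bases long and overlaps a peak in 1 or more of the 4 libraries. No gene was called in both directions. With any 1 library left out, which loosens the rule, the counts were 169 to 255 (highest without Col-0 replicate 1) and 422 to 577 (highest without *Atsdr4l-4* replicate 2). Of the called genes, 24 of the 82 and 74 of the 261 had no covered base at all in the other genotype. By the same threshold of 500 bases, 446 and 465 genes differed between the 2 Col-0 libraries, and 506 and 292 between the 2 *Atsdr4l-4* libraries. These counts compare single libraries, a looser criterion than the agreement of both that a call needs. Just inside the threshold were *DELTA-VPE* with 505 exclusive bases in Col-0 and AT2G03937 with 502 in *Atsdr4l-4*, and just outside were AT5G10946 with 495 and AT2G01360 with 495. On the 5 chromosomes, calls only in Col-0 made up 0.676% to 0.984% of tested genes and calls only in *Atsdr4l-4* 2.37% to 3.47%.

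The calls rested on weak peaks. Peaks that carried the exclusive bases had a median fold enrichment of 1.71 and 1.76 in the Col-0 libraries, against 1.83 and 1.97 for all their peaks, and of 1.65 and 1.74 in the *Atsdr4l-4* libraries, against 1.79 and 1.99. When only peaks with a -log10 q of at least 5 were kept, 32 of the 82 and 114 of the 261 genes were still called. With a fold enrichment of at least 2, these numbers were 16 and 52. Those 16 genes, which include *IAA14*, *LEA7*, *WOX2*, *TCP14*, *GATA12* and *HDG8*, and those 52 were called under each of 5 other settings of the peaks. Joined peaks and wide peaks removed no call, and equal numbers of peaks removed only some calls in *Atsdr4l-4*. For genes only in Col-0, the 5 settings thus amount to the limits of q and fold enrichment.

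Regulators of seed maturation were first examined. *LEC1* (AT1G21970) encodes an NF-Y transcription factor subunit that drives embryo development and seed maturation, and it was the one called gene among 5 tested of 12 such regulators. Of its 2073 bases, 1433 and 1886 were covered in Col-0 against 298 and 298 in *Atsdr4l-4* at 1 DAI. The genotypes did not overlap, which the rule of the call itself favours, and the means differed by -1361.5 bases with a pooled replicate SD of 226.5. The longest exclusive segment, of 937 bases (chr1:7728438-7729374), lay in an intron near the start of the gene. It held 2 RY elements (CATGCA or its reverse complement TGCATG) and 1 GA repeat (GAGAGA or TCTCTC), and no G-box (CACGTG). The 300 bases that hold these matches, in capitals, were covered in full in both Col-0 libraries and at no base in either *Atsdr4l-4* library. They are printed on the strand of the gene, 5′ to 3′, from TAIR10.1:
*LEC1* intron, chr1:7729049-7729348, minus strand: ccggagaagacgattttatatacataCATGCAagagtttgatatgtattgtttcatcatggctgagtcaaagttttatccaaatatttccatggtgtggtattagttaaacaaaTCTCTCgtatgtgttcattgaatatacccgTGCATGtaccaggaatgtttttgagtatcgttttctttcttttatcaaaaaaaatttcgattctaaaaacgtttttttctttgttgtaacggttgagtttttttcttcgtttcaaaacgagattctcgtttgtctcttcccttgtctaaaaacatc
Peaks at *LEC1* were weak, with a best fold enrichment of 1.46 and 1.76 in Col-0 and 1.31 and 1.36 in *Atsdr4l-4*, and the call was lost at a -log10 q of at least 5 and at 2-fold enrichment. Peaks upstream and downstream of the gene were present in all 4 libraries, so the difference lay within a region marked in both genotypes. From signal tracks, the paper describes H3K27me3 at *LEC1* as similar in wild-type and mutant seedlings at 1 DAI. In *Atsdr4l-5* at 1 DAI, 0 and 406 bases were covered. At 3 DAI, 2073 and 2073 bases were covered in Col-0 against 1794 and 2073 in *Atsdr4l-4*, so that the values met. *ABI3*, *ABI5*, *VAL1* (*HSI2*), *VAL2* (*HSL1*), *DIG1*, *DIG2* and *DIL1* carried no peak in any of the 4 libraries at 1 DAI. At 3 DAI *ABI3*, another maturation regulator, was covered over 3729 and 3799 bases in Col-0 against 472 and 1512 in *Atsdr4l-4*.

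Many late embryogenesis abundant (LEA) and dehydrin genes encode hydrophilic proteins that accumulate in drying seeds. In the list by gene symbol, 1 of 4 tested genes was called only in Col-0 and 0 only in *Atsdr4l-4*. In a wider list by product name, chosen after the values were seen, 3 of 47 (6.38%) were called only in Col-0 and 1 (2.13%) only in *Atsdr4l-4*, against 0.921% and 2.93% of all tested genes. *LEA7* (AT1G52690) was covered over 1554 and 1811 of its 1811 bases in Col-0 and over 476 and 265 in *Atsdr4l-4*. The groups did not overlap, which the rule of the call favours, and the call held at a -log10 q of at least 5 and at 2-fold enrichment. The dehydrin *ERD10* (AT1G20450) had 1117 and 1351 covered bases in Col-0 and none in *Atsdr4l-4*. AT5G06330, which encodes a LEA hydroxyproline-rich glycoprotein, had 1951 and 1951 in Col-0 against 583 and 588 in *Atsdr4l-4*. The wider list goes by product name alone, so membership does not show that a gene acts in drying seeds. The gene called in the other direction, *UNE15*, had 3185 and 2876 covered bases in Col-0 against 4369 and 4233 in *Atsdr4l-4*. *ERD10* and *UNE15* lost their calls at a -log10 q of at least 5 and at 2-fold enrichment, and AT5G06330 at 2-fold. None of 7 tested seed storage protein genes and not the 1 tested oleosin gene was called. The median difference of covered bases, *Atsdr4l-4* minus Col-0, was -157.5 for the 7 storage protein genes, against 0 for all tested genes. The 1 tested oleosin gene differed by -405, a value of a single gene. These differences were not tested. The median length of the storage protein genes was 768 bases, against 1686 for all tested genes. Such short genes leave little room for a call, so its absence does not show equal coverage.

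Auxin genes were among those called only in Col-0. *IAA14* (AT4G14550), an Aux/IAA repressor that blocks lateral root initiation, was covered over 2294 and 1839 of 2442 bases in Col-0 and over 57 and 0 in *Atsdr4l-4*. A domain upstream of the gene was present in both genotypes. In *Atsdr4l-4* it ended 57 bases into the gene in replicate 1 and before the start in replicate 2. The difference had the same direction at 3 DAI, in libraries that had no part in the call, with 2442 and 2442 bases in Col-0 against 763 and 568 in *Atsdr4l-4*. *Atsdr4l-5* at 1 DAI had 1690 and 2398 covered bases, one below and one above both values of Col-0. *YUC9* (AT1G04180), a flavin monooxygenase of auxin synthesis, had 1324 and 1437 bases in Col-0 against 434 and 459 in *Atsdr4l-4*. After peaks below a -log10 q of 5 were dropped, the difference at *YUC9* turned to 229.5 bases more in *Atsdr4l-4*. *YUC9* was 1 of 8 tested *YUCCA* genes, and *IAA14* and *ARF13* were 2 of 21 tested auxin signalling genes (9.52%, against 0.921% of all tested genes), a list chosen after the values were seen. The call of *ARF13*, as that of *YUC9*, was lost at both stricter limits of the peaks, and that of *IAA14* was kept.

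**Figure D2:**
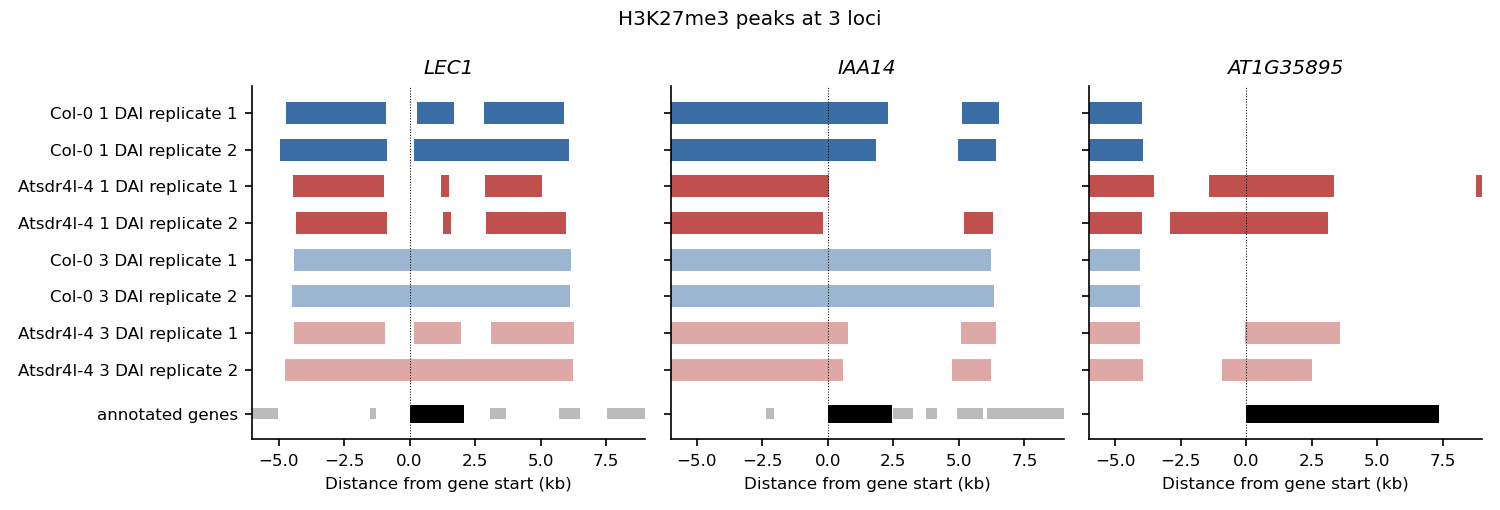
Peaks (bars) at *LEC1*, *IAA14* and AT1G35895 in the 4 libraries of 1 DAI and the 4 of 3 DAI, by distance in kb from the gene's start, with the gene in black and other annotated genes in grey. At *IAA14* the *Atsdr4l-4* peaks end near the start at 1 DAI (57 and 0 bases inside the gene), and at AT1G35895 only *Atsdr4l-4* libraries have a peak in the gene.

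Several genes of transcription factors and 1 cyclin gene were called only in Col-0. *KNAT2* (AT1G70510), a KNOX homeobox gene of meristems, had 4417 and 4516 covered bases in Col-0 against 3308 and 3228 in *Atsdr4l-4*. *WOX2* (AT5G59340), which patterns the apical embryo, had 1325 and 1397 in Col-0 against 746 and 716 in *Atsdr4l-4*. At both genes a shared peak was shorter in the mutant rather than absent. *SNZ* (AT2G39250), an AP2-type repressor of flowering, had 1310 and 2143 covered bases in Col-0 and none in *Atsdr4l-4*. *NAC019* (AT1G52890), a stress-responsive NAC factor, had 1521 and 1037 in Col-0 against 237 and 0 in *Atsdr4l-4*. *CYCD1;1* (AT1G70210), a D-type cyclin, had 3452 and 3452 in Col-0 against 873 and 1391 in *Atsdr4l-4*, and it overlaps the gene AT1G70209. In all 5 of these genes the genotypes did not overlap, a separation that the rule of the call itself favours. Of the 5, only *WOX2* kept its call at a -log10 q of at least 5 and at 2-fold enrichment. *TCP14*, *GATA12* and *HDG8*, named for their calls under all settings after the values were seen, also encode transcription factors. *TCP14* had 1596 and 1561 covered bases in Col-0 against 0 and 579 in *Atsdr4l-4*, *GATA12* 1706 and 1147 against 927 and 252, and *HDG8* 4124 and 4124 against 3298 and 3371. By family, 1 of 6 tested KNOX, 1 of 8 *WOX* and 1 of 58 NAC genes were called only in Col-0, and 0 of 59 MADS box and 0 of 41 WRKY genes were called in either direction, against 0.921% and 2.93% of all tested genes. Nothing about a family is read from a single call or none. No gene was called among 6 tested *YABBY*, 6 *AINTEGUMENTA*-like, 7 abscisic acid synthesis and breakdown, 14 gibberellin oxidase and 20 expansin genes, or among 3 Polycomb subunits.

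The remaining genes among the 12 with the most bases only in Col-0 were of mixed kinds. *FMO GS-OX4* (AT1G62570), which oxidises the side chain of glucosinolates, led with 2164 exclusive bases. It had 2615 and 2681 covered bases in Col-0 against 38 and 451 in *Atsdr4l-4*. At 3 DAI it had 861 and 1062 in Col-0 against 839 and 807 in *Atsdr4l-4*, a difference of -138.5 bases. The UDP-glycosyltransferase gene AT2G16890 was covered over all its 2455 bases in both Col-0 libraries and over 0 and 555 in *Atsdr4l-4*. *LACS2* (AT1G49430), an acyl-CoA synthetase of cutin formation, had 4964 and 2905 in Col-0 against 1850 and 1311 in *Atsdr4l-4*. Here the difference of -2354 bases came with a pooled SD of 1064. The terpenoid cyclase gene AT2G23230 (1596 and 1707 bases), the Tudor domain gene AT5G10950 (2608 and 1383), the dioxygenase gene AT5G54000 (1228 and 1482) and *RLP36* (1393 and 1337), a receptor-like protein gene, were marked in Col-0 and had no covered base in *Atsdr4l-4*. *MC2*, a metacaspase gene, had 1955 and 1858 in Col-0 against 0 and 560 in *Atsdr4l-4*. None of the 8 genes of this paragraph up to *MC2* kept its call at 2-fold enrichment, and AT2G16890 and AT5G54000 alone kept it at a -log10 q of at least 5. AT5G10950 had no covered base in any library but the 2 of Col-0 at 1 DAI. Cytochrome P450 genes were called in both directions, 2 only in Col-0 (*CYP78A7* and *CYP86A7*) and 3 only in *Atsdr4l-4* (*CYP71B19*, *CYP96A13* and *CYP705A30*) of 137 tested. These shares, 1.46% and 2.19%, are near the 0.921% and 2.93% of all tested genes. *UGT84A3* was 1 of 25 tested UDP-glycosyltransferase genes called by symbol. By product name, a list chosen after the values were seen, 4 of 36 (11.1%) were called only in Col-0, of which 2 kept their call at a -log10 q of at least 5 and 0 at 2-fold. At *CYP86A7* the Col-0 values were 541 and 1896 and those of *Atsdr4l-4* 634 and 247, so that the covered bases overlapped although 541 of them were exclusive to Col-0.

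**Figure D3:**
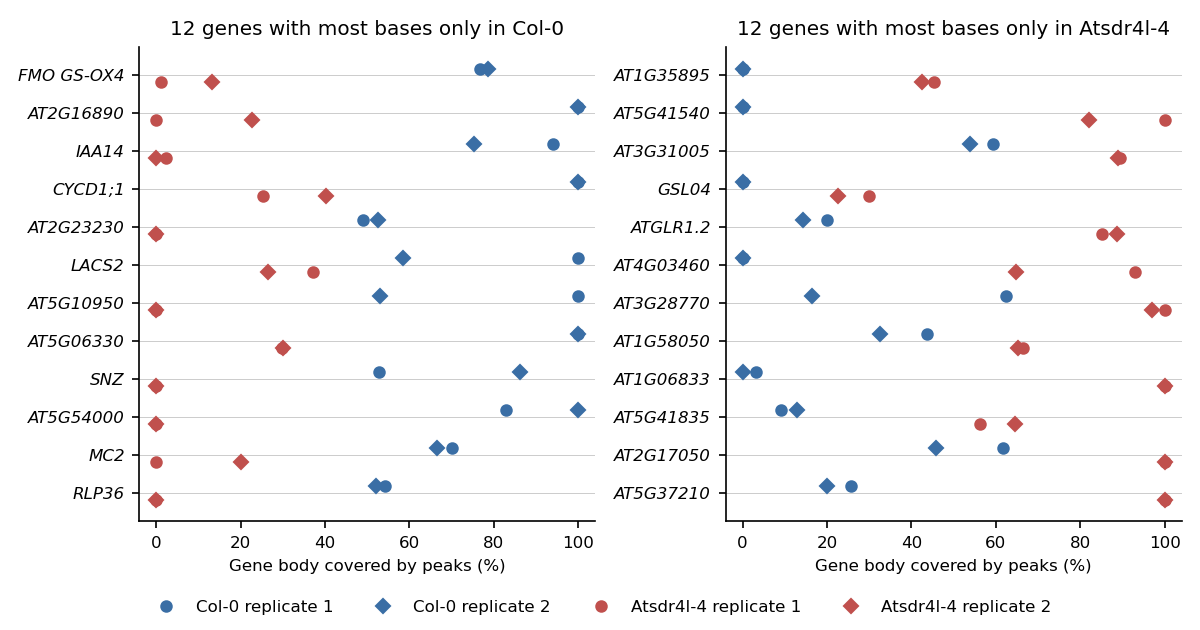
Share of the gene body covered by peaks in percent (x axis) in each of the 4 libraries at 1 DAI, for the 12 genes with the most bases only in Col-0 (left) and only in *Atsdr4l-4* (right). Circles are replicate 1 and diamonds replicate 2, Col-0 in blue and *Atsdr4l-4* in red. At all 24 genes the genotypes are separate, and the genes were chosen for this contrast.

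Among genes called only in *Atsdr4l-4*, AT1G35895, which encodes an uncharacterised protein, led with 3126 exclusive bases (chr1:13351100-13354225), most of them intronic. It had no covered base in Col-0 at 1 DAI and 3337 and 3126 in *Atsdr4l-4*. At 3 DAI the pattern was the same, with none in Col-0 against 3573 and 2531 in *Atsdr4l-4*. *Atsdr4l-5* had 0 and 562 covered bases there at 1 DAI and none at 3 DAI. *GSL04* (AT3G14570), a gene of the callose synthase family, had none in Col-0 against 3144 and 2360 in *Atsdr4l-4*. At 3 DAI it had 822 and 1081 in Col-0 against 3652 and 2710 in *Atsdr4l-4*. *ATGLR1.2* (AT5G48400), a glutamate receptor-like channel gene, had 689 and 495 in Col-0 against 2930 and 3053 in *Atsdr4l-4*, and the ankyrin repeat gene AT4G03460 had none in Col-0 against 3344 and 2332 in *Atsdr4l-4*. Both were covered in Col-0 at 3 DAI, over 1777 to 2773 bases. The RNA gene AT1G06833, which overlaps AT1G06837, was covered over 69 and 0 bases in Col-0 and over all of its 2193 in *Atsdr4l-4*. AT3G28770, a DUF1216 gene, had 4213 and 1115 in Col-0 against 6759 and 6551 in *Atsdr4l-4*, and the RNA helicase gene AT1G58050 had 4040 and 3009 in Col-0 against 6151 and 6039 in *Atsdr4l-4*. The homeobox genes *HDG1* (1116 and 832 in Col-0 against 2768 and 2770 in *Atsdr4l-4*), which acts in the epidermis, and *ATH1* (2291 and 2092 in Col-0 against 3484 and 3484 in *Atsdr4l-4*) were chosen after their values were seen. Of the 9 genes of this paragraph up to *ATH1*, only AT1G06833 kept its call at a -log10 q of at least 5, and none of them at 2-fold enrichment. *MYB121*, which kept it at both limits, was the one called of 89 tested *MYB* genes (1.12%, below the 2.93% of all tested genes), with 837 and 841 bases in Col-0 against 1877 and 1737 in *Atsdr4l-4*.

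Disease resistance, receptor kinase and C1 domain genes and pseudogenes were called only in *Atsdr4l-4* at shares above that of all tested genes. These lists were chosen after the values were seen, and no test was made of them. Of 60 tested NLR genes, which encode intracellular immune receptors, 10 (16.7%) were called only in *Atsdr4l-4* and 1 only in Col-0, against 2.93% and 0.921% of all tested genes. The TIR-NBS-LRR gene AT5G41540 had no covered base in Col-0 and 3405 and 2798 of its 3405 bases covered in *Atsdr4l-4*. AT2G17050, of the same class, had 3150 and 2334 in Col-0 and all 5099 bases covered in both *Atsdr4l-4* libraries. *RPP4* and *RPP13*, which give resistance to downy mildew, had 1432 and 1420 against 2653 and 2018, and 260 and 0 against 782 and 913. Of 22 tested cysteine-rich receptor kinases, 6 (27.3%) were called only in *Atsdr4l-4*. They were *CRK42*, *CRK24*, *CRK36*, *CRK16*, *CRK38* and *CRK14*, with 569 to 1142 exclusive bases each. The list left out *EMB1290*, annotated as cysteine-rich receptor-like protein kinase 17, which was also called, with 822 exclusive bases. *CRK14*, *CRK16* and *EMB1290* lie in one run with overlapping genes, which can share exclusive bases. C1 domain genes gave 9 of 127 (7.09%), among them AT5G37210 with 628 and 487 bases in Col-0 and all 2449 in *Atsdr4l-4*. F-box genes gave 8 of 411 (1.95%), below the share of all tested genes. Pseudogenes gave 31 of 502 (6.18%) and none in the other direction, with AT3G31005 (4953 and 4508 against 7472 and 7426, in part shared with the overlapping AT3G31023) and AT5G41835 (446 and 637 against 2789 and 3205) at their head. The median difference of covered bases, *Atsdr4l-4* minus Col-0, was 158.75 for the tested NLR genes, 641.5 for the receptor kinases and 0 for C1 domain genes and for all tested genes. Long genes can hold more exclusive bases, and the median gene length was 4463.5 bases for NLR genes and 2843 for the receptor kinases, against 1686 for all tested genes. The part that gene length has in these shares was not tested. The shares rested largely on weak peaks. At a -log10 q of at least 5, 2 of the 10 NLR genes (AT2G17050 and AT5G45200), 2 of the 6 receptor kinases (*CRK42* and *CRK38*), 4 of the 9 C1 domain genes and 19 of the 31 pseudogenes were still called, against 114 of all 261. At 2-fold enrichment these numbers were 2, 1 (*CRK38*), 1 and 10, against 52 of all 261. AT5G41540, *RPP4* and *RPP13* lost their calls at both limits. Members of these families can be near-identical copies, between which reads cannot be placed with certainty, so their values are uncertain. The part of such copies in the shares was not tested.

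**Figure D4:**
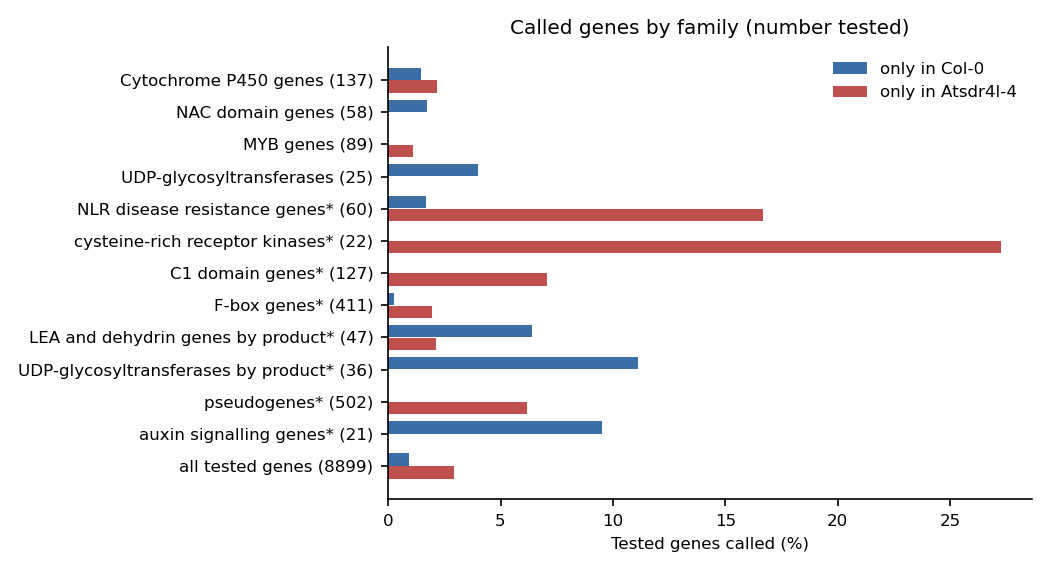
Percent of tested genes called only in Col-0 (blue) and only in *Atsdr4l-4* (red) for lists with at least 20 tested genes and 1 call, with the number tested in parentheses. Lists with an asterisk were chosen after the values were seen. Receptor kinases (27.3%) and NLR genes (16.7%) have the highest shares, against 2.93% of all tested genes. At a -log10 q of at least 5, 2 of these 6 and 2 of these 10 genes were still called.

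A long gene reaches 500 exclusive bases more easily than a short one. The median length was 2062 bases for genes called only in Col-0 and 2739 for those called only in *Atsdr4l-4*, against 1686 for all tested genes. In protein-coding called genes, 52.0% of the bases only in Col-0 and 64.7% of those only in *Atsdr4l-4* were coding, against 54.5% of all covered bases of tested genes. Untranslated regions held 21.6% and 9.93%, against 18.8%. With each gene body cut into 3 equal parts, the middle part held 37.0% and 40.1% of the exclusive bases, against 33.5%.

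Promoters were examined because RY elements and G-boxes are known sites of VAL proteins and of bZIP and bHLH factors. In the 250 bases before the start, an RY element was found in 17.7% of the 79 protein-coding genes called only in Col-0 and in 12.5% of the 224 called only in *Atsdr4l-4*, against 12.5% of 8012 tested and 8.42% of all 27349 protein-coding genes. A G-box was found in 7.59% and 6.25%, against 5.02% and 6.50%. Teloboxes (AAACCCTA or its reverse complement) were found in 2.53% and 3.13%, against 5.64% and 4.50%, and GA repeats in 25.3% and 22.8%, against 20.4% and 20.6%. In the 1000 bases before the start, RY elements were found in 46.8% and 33.0%, against 39.4% of tested genes, and GA repeats in 48.1% and 58.0%, against 52.8%. In the exclusive bases of the called genes themselves, RY elements occurred 0.552 times per kb only in Col-0 and 0.454 times only in *Atsdr4l-4*. Both were fewer than the 0.643 per kb of bases covered in all 4 libraries. G-boxes occurred 0.311 times per kb only in Col-0 (22 matches) and 0.107 times only in *Atsdr4l-4* (26 matches). The bases covered in all 4 libraries held 0.143 G-boxes per kb. Teloboxes were likewise more frequent than there in the bases only in Col-0 and less frequent in those only in *Atsdr4l-4*. GA repeats were less frequent in both. These differences were not tested. A match is only a stretch of letters. The whole window was covered in both Col-0 and in neither *Atsdr4l-4* libraries at 13 of the 79 genes, and the reverse held at 20 of the 224. The following windows are of genes named above and show such promoters, with RY elements, G-boxes and GA repeats in capitals, from TAIR10.1 and 5′ to 3′ on the strand of the gene. They were covered over all 250 bases in both Col-0 libraries and at no base in *Atsdr4l-4*:
*CYCD1;1*, chr1:26439306-26439555, plus strand: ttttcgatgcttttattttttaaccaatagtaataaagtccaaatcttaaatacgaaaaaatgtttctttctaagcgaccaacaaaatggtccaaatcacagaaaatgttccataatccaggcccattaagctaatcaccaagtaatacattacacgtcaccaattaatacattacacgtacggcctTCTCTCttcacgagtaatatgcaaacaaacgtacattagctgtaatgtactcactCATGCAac
*AT5G10950*, chr5:3461825-3462074, minus strand: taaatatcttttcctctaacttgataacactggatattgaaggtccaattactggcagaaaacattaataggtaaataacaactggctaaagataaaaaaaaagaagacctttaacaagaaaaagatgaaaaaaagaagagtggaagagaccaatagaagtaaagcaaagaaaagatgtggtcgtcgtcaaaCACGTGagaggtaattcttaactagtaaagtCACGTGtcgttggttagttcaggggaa
*YUC9*, chr1:1104243-1104492, plus strand: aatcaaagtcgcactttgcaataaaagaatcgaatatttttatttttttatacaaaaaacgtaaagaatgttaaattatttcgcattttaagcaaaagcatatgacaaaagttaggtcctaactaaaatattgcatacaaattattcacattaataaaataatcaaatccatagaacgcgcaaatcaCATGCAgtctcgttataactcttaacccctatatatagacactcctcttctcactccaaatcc
The window of AT5G10950 holds 2 G-boxes, and those of *CYCD1;1* and *YUC9* hold an RY element each, with a GA repeat at *CYCD1;1*. The next were covered over all 250 bases in both *Atsdr4l-4* libraries and at no base in Col-0:
*AT1G35895*, chr1:13354226-13354475, minus strand: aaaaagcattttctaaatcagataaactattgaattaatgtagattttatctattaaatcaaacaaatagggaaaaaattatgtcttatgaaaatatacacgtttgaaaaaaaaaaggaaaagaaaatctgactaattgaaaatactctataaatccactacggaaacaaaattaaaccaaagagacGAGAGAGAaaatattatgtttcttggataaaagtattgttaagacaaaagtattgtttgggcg
*CYP96A13*, chr5:673810-674059, plus strand: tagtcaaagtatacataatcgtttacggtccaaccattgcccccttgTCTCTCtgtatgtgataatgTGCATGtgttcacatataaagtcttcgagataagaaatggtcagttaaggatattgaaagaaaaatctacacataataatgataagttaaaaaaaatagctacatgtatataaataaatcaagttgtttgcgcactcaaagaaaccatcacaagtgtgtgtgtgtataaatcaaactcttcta
*CYP705A30*, chr3:7339390-7339639, plus strand: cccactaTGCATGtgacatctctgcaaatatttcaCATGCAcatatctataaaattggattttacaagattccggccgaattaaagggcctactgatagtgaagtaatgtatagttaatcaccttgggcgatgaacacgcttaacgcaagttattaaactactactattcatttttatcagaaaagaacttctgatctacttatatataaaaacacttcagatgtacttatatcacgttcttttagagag
*CYP705A30* has 2 RY elements and *CYP96A13* 1 beside a GA repeat. AT1G35895 has overlapping GA repeats only. At *CYP96A13* the gene body had no covered base in Col-0 against 876 and 1026 in *Atsdr4l-4*, and at *CYP705A30* 928 and 649 in Col-0 and all 2064 in *Atsdr4l-4*.

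The exclusive bases of called genes were covered over most of their length in each Col-0 and *Atsdr4l-4* library of 3 DAI. The length covered in both genotypes at once was not computed, and exclusive bases outside called genes were not followed. The 70.6 kb of called genes only in Col-0 were covered over 82.7% and 83.7% in the Col-0 libraries of 3 DAI and over 73.7% and 75.5% in those of *Atsdr4l-4*. The *Atsdr4l-4* values lay below the Col-0 values in both libraries, by a mean of -8.61 percentage points (exact permutation test, two-sided, p = 0.333, the smallest possible). The 242 kb only in *Atsdr4l-4* were covered over 77.1% and 66.7% in Col-0 and 78.0% and 71.8% in *Atsdr4l-4*, and here the genotypes overlapped (difference 3.04 points, exact permutation test, two-sided, p = 0.667). This difference turned to -2.18 without Col-0 replicate 2 of 3 DAI, to -0.0715 without *Atsdr4l-4* replicate 1 of 3 DAI and to -0.843 after peaks below a -log10 q of 5 were dropped. In the *Atsdr4l-5* libraries of 1 DAI, 15.1% and 22.8% of the segments only in Col-0 were covered, and 41.2% and 60.7% of those only in *Atsdr4l-4*.

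**Figure D5:**
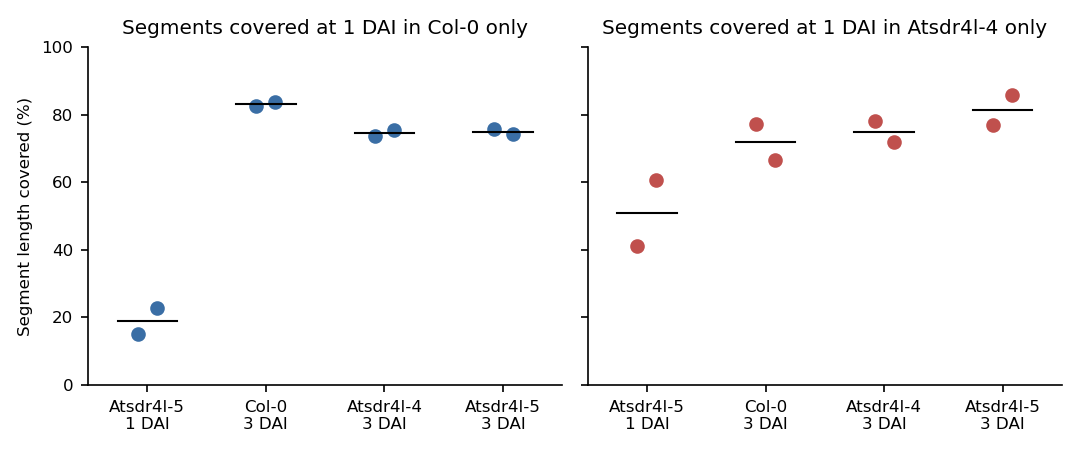
Percent of the length of the exclusive segments of called genes (y axis) covered in libraries that had no part in the calls, for segments only in Col-0 (left) and only in *Atsdr4l-4* (right). Points are single libraries and lines are means of 2. At 3 DAI all Col-0 and *Atsdr4l-4* values lie between 66.7% and 83.7%.

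Most genes called at 1 DAI were not called in the same direction at 3 DAI, but a larger share was than of all tested genes. The shares were 9.76% of those only in Col-0 and 4.21% of those only in *Atsdr4l-4*, against 1.56% and 0.425%. These overlaps were not tested. At 3 DAI, 158 of 10121 tested genes (1.56%) were called only in Col-0 and 43 (0.425%) only in *Atsdr4l-4*. The direction with more calls was thus the opposite of that at 1 DAI. The libraries of the 2 time points are separate. Called only in Col-0 at both were 8 genes, 9.76% of those of 1 DAI and 5.06% of those of 3 DAI: *IAA14*, *KNAT2*, *NHX4*, AT4G11340, *CAX1*, *PP2-B11*, *TPS12* and *TDT*. Among them, *NHX4*, a vacuolar cation exchanger gene, had 3324 and 2876 covered bases in Col-0 against 1992 and 1764 in *Atsdr4l-4* at 1 DAI, and 3512 and 3755 against 1831 and 2067 at 3 DAI. *KNAT2* had 6267 and 6394 against 4596 and 5132 at 3 DAI. *CAX1*, which moves calcium into the vacuole, differed at 1 DAI by -619.5 bases, and this turned to 1094 after peaks below a -log10 q of 5 were dropped. Called only in *Atsdr4l-4* at both were 11 genes, 4.21% of those of 1 DAI and 25.6% of those of 3 DAI: AT1G35895, *GSL04*, AT4G03824, *WNK9*, *OPR3*, AT4G10530, *CUL2*, AT1G71200, *RPP4*, AT1G47670 and AT5G46530. The pseudogene AT4G03824 was covered over all 1164 bases in the *Atsdr4l-4* libraries and at none in the Col-0 libraries, at both times. *OPR3*, an enzyme of jasmonate synthesis, had 1342 and 670 bases in Col-0 against 2304 and 2287 in *Atsdr4l-4* at 1 DAI, and 282 and 0 against 1133 and 2336 at 3 DAI. Of the genes called only in *Atsdr4l-4* at 1 DAI, 9 (3.45%) were called only in Col-0 at 3 DAI, among them *TIL2* and *SVL2*. The share of all tested genes was 1.56%. The reverse held for none of the 82 genes called only in Col-0 at 1 DAI, against 0.425% of all tested genes. Nothing is read from this absence. All genes named here as called at both times were picked after their values were seen.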

How the data were processed

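H3K27me3 ChIP-seq peak lists of Col-0 and *Atsdr4l-4* seedlings at 1 DAI were analysed. Per the paper's methods, the authors trimmed reads with fastp 0.23.4, aligned them to TAIR10 with Bowtie 2, filtered alignments by mapping quality with SAMtools 1.6, and called broad peaks in each library with MACS2 against joined mock IgG alignments. MACS2 2.2.7.1 and 2.2.6 are both listed in the submitters' processing notes. The deposited fold enrichment is a linear ratio of pileup to background, and the authors' -log10 p and -log10 q values and score are averages over a peak. They were used only to filter or rank peaks. The lists hold no counts. Depth is therefore unknown, and a peak list depends on depth.

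Covered bases were computed per library and per gene body of the TAIR10.1 annotation (37899 genes on chromosomes 1 to 5, of which 185 touch the region left out), whose chromosome lengths hold every peak. No strand enters, so overlapping genes share peaks. Replicates are separate samples by their labels, but nothing states that they came from separate plants or cultures, so the spread may be technical. The p-values come from exact permutations of libraries. Named are the 12 genes with the most exclusive bases in each direction, up to 6 called genes per list and direction, the loci of the paper, and others stated to be chosen after their values were seen. The members and lists were chosen with earlier results of these data known. The alternatives were stricter peaks, equal numbers of peaks, joined or wide peaks, the insertion included, other thresholds and windows, the replicate block and each library left out. Mock IgG libraries and the ChIP-seq of tagged proteins were not used here. Scripts were tested on simulated peak lists. Python 3.11.15, numpy 2.4.6 and matplotlib 3.10.9 were used.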

Additional observations from a re-analysis of the deposited data

Results flagged for a closer look

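At 3 of the named genes every *Atsdr4l-4* library lay above both Col-0 libraries at 1 DAI and below both at 3 DAI. The genes were called for higher coverage in *Atsdr4l-4* at 1 DAI, so that part of the pattern follows from the choice. The share of all tested genes with this pattern was not computed. The difference between the time points was not tested. The RNA helicase gene AT1G58050 differed by 2570.5 covered bases at 1 DAI and by -897.5 at 3 DAI (*Atsdr4l-4* minus Col-0). *CYP71B19*, a cytochrome P450 gene, differed by 1009.5 and -277 bases, with 0 and 0 bases in Col-0 against 1003 and 1016 in *Atsdr4l-4* at 1 DAI and 1079 and 990 against 866 and 649 at 3 DAI. *HDG1* differed by 1795 and -89.5 bases. Its values at 3 DAI were close, with 4506 and 4554 of 4825 bases in Col-0 against 4392 and 4489 in *Atsdr4l-4*.

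Peaks on the chloroplast and mitochondrial genomes, which entered no comparison, numbered 20 and 27 in the Col-0 libraries and 23 in *Atsdr4l-4* replicate 2, against 0 in *Atsdr4l-4* replicate 1 and 0 in each library of 3 DAI. Without that replicate, 180 genes were called only in Col-0 and 430 only in *Atsdr4l-4*.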

How the results depend on the processing

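Counts of called genes depended on the threshold, while more genes were called only in *Atsdr4l-4* than only in Col-0 under every alternative run. The median -log10 q of the peaks was lower in both Col-0 libraries (6.42 and 6.74) than in those of *Atsdr4l-4* (7.13 and 8.55). A fixed limit of q can therefore remove more peaks from Col-0, and counts at that limit are not an even comparison. The main counts were 82 only in Col-0 and 261 only in *Atsdr4l-4*. They were 44 and 160 with at least 2-fold enrichment, 66 and 348 when peaks under a -log10 q of 5 were dropped, 229 and 591 at 200 bases, 24 and 96 at 1000 bases, 30 and 72 when exclusive bases had to make up at least as much of the gene body as the rest, and 167 and 377 with 1 kb upstream added. Leaving out 1 library loosens the rule by construction. It gave 169 to 255 genes only in Col-0, highest without Col-0 replicate 1 and lowest without *Atsdr4l-4* replicate 2, and 422 to 577 only in *Atsdr4l-4*, highest without *Atsdr4l-4* replicate 2 and lowest without Col-0 replicate 2. The lengths became 736 to 1239 kb and 1207 to 1999 kb in the same way, and the length only in Col-0 was 259 kb with 2-fold enrichment.

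The log2 ratio of covered length lay between -0.0066 and 0.088 when single libraries were dropped, and that of peak number between 0.0037 and 0.065. Same-numbered replicates share only a number: over 8899 genes their deviations correlated at 0.0636, and with the replicate block 106 and 343 genes were called, with a sign-flip p of 1 for covered length and for peak number. Joining peaks across 500 bp altered no value. Of 693 values of named genes under alternatives, 585 stayed within 1 pooled replicate SD, 105 moved by more and 3 turned in sign, all at that limit of q: *YUC9* (229.5 bases), *CAX1* (1094) and *CYP86A7* (317). The cause of these turns was not tested. The 585 include values of genes without a peak at 1 DAI and of settings that altered nothing. That number therefore does not measure how stable the called genes are. For the segments only in *Atsdr4l-4*, the 3 DAI difference ranged from -2.18 to 8.27 points with each 3 DAI library left out, with -0.0715 without *Atsdr4l-4* replicate 1 and -0.843 at that limit of q. For the segments only in Col-0 it ranged from -9.52 to -7.70. The alternatives for these 3 DAI values were chosen after seeing the data.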

Other observations

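Some further genes called only in *Atsdr4l-4* are given here, picked after their values were seen and with no test, against 2.93% of all tested genes. Of 4 tested myo-inositol oxygenase genes, 2 were called, *MIOX1* (0 and 0 bases in Col-0 against 1541 and 852 in *Atsdr4l-4*) and *MIOX2* (1126 and 0, against 2513 and 1841). Of 2 tested sucrose synthase genes, 2 were called, *SUS4* (965 and 0, against 2143 and 1530) and *SUS5* (3463 and 2648, against 4479 and 4611). Of 9 tested purine permease genes, *PUP1*, *PUP16* and *PUP17* were called. Of these 7 genes, *SUS5* alone kept its call at a -log10 q of at least 5. The stress kinase gene *CPK6* had 0 and 0 bases in Col-0 against 1910 and 1332 in *Atsdr4l-4* at 1 DAI and none in these genotypes at 3 DAI. *NIA2*, a nitrate reductase gene, had 2283 and 2300 bases in Col-0 against 3487 and 3418 in *Atsdr4l-4*.

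Some called genes were neighbours. Within 5000 bp of another gene called in the same direction lay 29 of the genes only in *Atsdr4l-4*, in 14 runs, and 4 of those only in Col-0, in 2 runs. In 6 of the 14 runs the genes overlap each other and can share exclusive bases, and the share of neighbours among all tested genes was not computed. Among these 6, one run of 3 genes held *CRK14*, *CRK16* and *EMB1290*, which are neighbouring receptor kinase genes on chromosome 4.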
